A study of Homo sapiens with 75 samples.

Results

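NF-kB target genes and inflammatory cytokines were examined in 5 human cell lines before and after ionising radiation. The set was a list of 33 genes covering NF-kB subunits and their feedback regulators, chemokines, cytokines, survival genes and surface proteins. A gene counted as measured when the array held a probe set with that gene's symbol alone, and where a gene had several such probe sets, the brightest on average across the 75 arrays stood for it. By this rule 30 of the 33 members were measured, out of 19775 genes in the whole series. BCL3 (a nuclear co-regulator) and CCL3 (a chemokine) were represented here by probe sets shared with other genes, and they and BIRC3 (an inhibitor of apoptosis) were not analysed here. SOD2 (mitochondrial superoxide dismutase) was measured by 1 probe set of its own, while 4 more were shared with other symbols and not used.

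The lines were G361 (melanoma), HepG2 (liver tumour), TK6 (B lymphoblast), U2OS (osteosarcoma) and BJ (foreskin fibroblast). Each line had 5 groups of 3 arrays. Untreated cells were collected at 0 h, 3 h and 6 h, and cells given 5 Gy of radiation at 3 h and 6 h. Untreated cells were mock-irradiated, and the labels give the same culture medium for all the arrays. Nothing in the labels says that replicates came from separate cultures, so p-values measure only how far the arrays of a group spread, and that spread may be technical. Each line is 1 established cell line and stands for no other cells of its tissue.

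NF-kB is a family of dimeric transcription factors built from the REL, RELA, RELB, NFKB1 and NFKB2 subunits. Inhibitors such as NFKBIA hold the dimers in the cytoplasm until a kinase complex, activated by cytokine receptors or by DNA damage through ATM and NEMO, marks the inhibitor for destruction. Many target genes encode the pathway's own brakes, among them NFKBIA and TNFAIP3, and others encode secreted chemokines and cytokines.

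The NF-kB consensus motif, searched as a single fixed pattern on both strands, was present in a large share of the members' promoters. Windows of 250 bases before to 50 bases after each annotated start were taken from RefSeq (GRCh38.p14). Of 41 windows belonging to members, 17 held the motif (41.46%), against 2075 of 35116 windows of all genes (5.909%). The list was made of NF-kB targets and inflammatory cytokines, so a larger share among members is not an independent result. By gene, 16 of the 27 members with a window had a match, and 6 members had no entry, LIF among them. TNF, EBI3, CXCL8, ICAM1, BCL2A1 and TRAF1 were among the members with no match, and the pattern leaves out any site that departs from it. The windows below belong to some of the genes whose levels or changes are described later. Others with a match, among them TNFAIP3, NFKB1, CCL20 and CD83, are not shown. Each is 30 bases, 5′ to 3′ on the gene's strand, with the motif match in capitals.

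CXCL1, chr4:73869305-73869334, plus strand: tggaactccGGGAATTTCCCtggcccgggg
CXCL2, chr4:74099253-74099282, minus strand: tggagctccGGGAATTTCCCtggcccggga
CXCL3, chr4:74038748-74038777, minus strand: tggagctccGGGAATTTCCCtggcccggcc
IRF1, chr5:132490804-132490833, minus strand: ggccagggctGGGGAATCCCgctaagtgtt
LTA, chr6:31572176-31572205, plus strand: ctaagccctgGGGGCTTCCCcgggccccag
NFKBIA, chr14:35404811-35404840, minus strand: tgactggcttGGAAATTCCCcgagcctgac
REL, chr2:60881518-60881547, plus strand: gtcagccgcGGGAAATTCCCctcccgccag
TNIP1, chr5:151081057-151081086, minus strand: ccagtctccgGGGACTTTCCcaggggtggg

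The 3 CXCL windows carried the same match, 78 or 79 bases before the start. Over the last 100 bases before the start, CXCL1 and CXCL3 were identical at 90 positions without gaps, CXCL1 and CXCL2 at 73, and CXCL2 and CXCL3 at 67. A match describes these letters only and is not a measured binding site.

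The labels were checked before the results. Melanocyte markers were highest in G361 (7 of 7 measured), B lymphoid markers in TK6 (8 of 8) and fibroblast markers in BJ (10 of 10). Of 5 measured osteoblast markers, 2 were highest in U2OS and 2 in the arrays labelled HepG2, with means per array of 5.27 to 5.65 and 5.17 to 5.49 log2. Of 9 measured hepatocyte markers, 5 were highest in U2OS and 1 in the arrays labelled HepG2, and the mean of the 9 per array was 3.65 to 3.85 log2 there against 4.15 to 4.55 in U2OS. These lists go against the HepG2 name and do not set U2OS apart from HepG2, so both names are those of the labels. Macrophage and monocyte markers, which could stand for another source of cytokine RNA, averaged 3.33 to 4.10 in every array of every line. Of the 6 measured, 4 were highest in TK6, 1 in HepG2 and 1 in BJ. In TK6 3 were past the level limit, as in G361 and BJ. Another source of the RNA was not tested. The mean of 26 p53 target genes relative to 0 h was higher in irradiated than untreated cells of TK6 (group means 1.34 and 1.31 log2 at 3 h and 6 h, against -0.08 and -0.19), U2OS (0.71 and 1.20 against -0.10 and 0.17) and BJ (0.53 and 0.52 against -0.16 and -0.04). In G361 it was 0.30 and 0.51 in the arrays labelled untreated at 3 h and 6 h against 0.07 and 0.52 in those labelled irradiated, and in HepG2 0.18 and 0.75 against 0.09 and 0.92. Single G361 arrays disagreed within groups. Replicates 1, 2 and 3 were at 0.10, 0.13 and 0.66 in untreated 3 h and at 0.74, 0.78 and 0.02 in untreated 6 h. The G361 and HepG2 groups are therefore given as labelled, without reading a direction of the radiation response from them. Replicate 1 of U2OS untreated 3 h had the lowest upper quartile of all arrays (5.88 log2, in a range of 5.88 to 6.41), and replicate 1 of every G361 group had a GAPDH 5′ probe signal 0.68 to 0.94 log2 below the 3′ signal, against a difference of -0.18 to 0.13 in the other arrays.

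Before irradiation the members differed widely between lines, and TK6 had the highest level of most of them. At 0 h, 29 of 30 members differed between the 5 lines, where 65.0% of all genes did (limma moderated F, adjusted p under 0.05). TK6 was the highest line for 20 of the 30 members, and for 18 of those it was above the next line in the pairwise test. Paired with TK6, G361 differed for 28 of the 30 members (38.7% of all genes), HepG2 for 24 (37.0%), U2OS for 22 (43.2%) and BJ for 27 (46.2%), with 20 to 22 of them higher in TK6. Pairs without TK6 differed for fewer members: 17 between G361 and HepG2 (33.8% of all genes), 18 between G361 and U2OS (38.0%), 16 between G361 and BJ (40.3%), 17 between HepG2 and U2OS (36.4%), 20 between HepG2 and BJ (40.2%) and 16 between U2OS and BJ (43.7%). G361 was highest for 5, BJ for 3, U2OS for 2 and HepG2 for 0. SOD2 was the member that did not pass (adjusted p = 0.557). Without the arrays labelled HepG2, an alternative chosen after seeing the data, 29 of 30 differed as well. The range of line means exceeded 2 log2 for 21 members and 5 log2 for 6. Of those 6, BCL2A1, CXCL1, CCL2 and CCL20 had their lowest means below the level limit, so these ranges describe the measured values and are not ranked. Levels are log2 RMA values, compared here between lines for the same gene and not between genes.

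**Figure D1:**
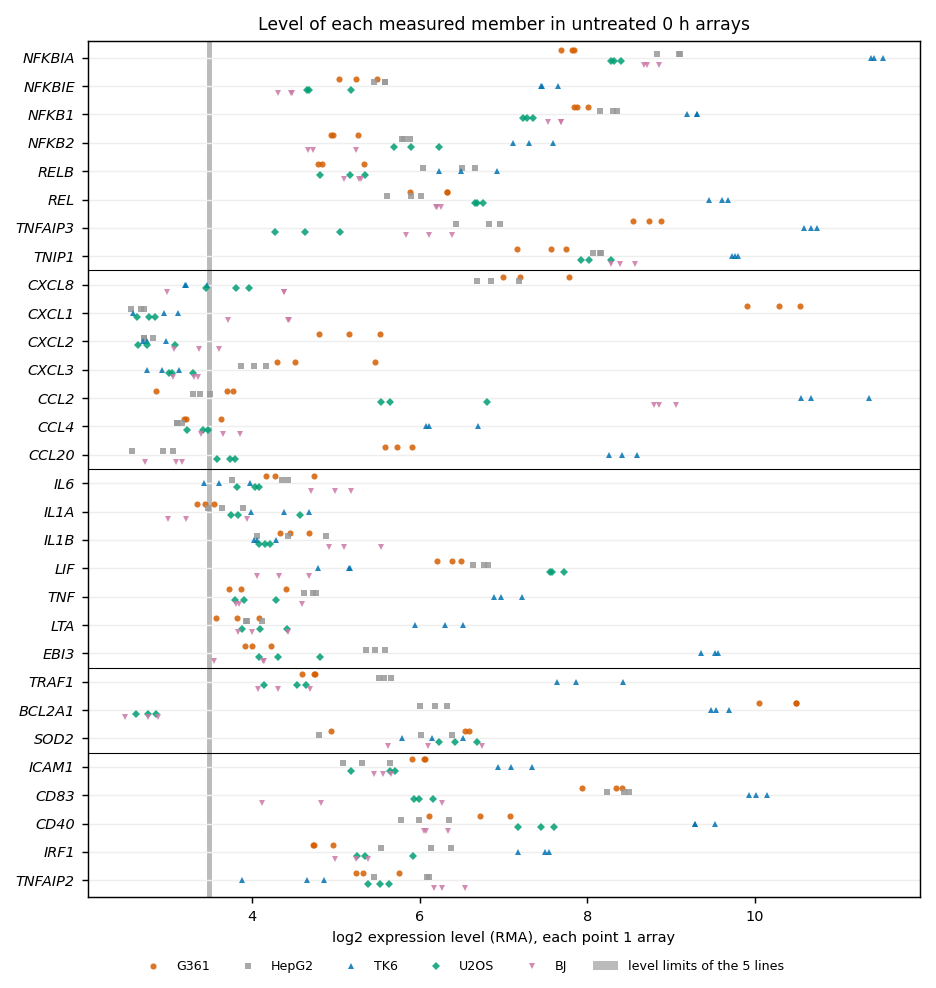
Level of the 30 measured members in the untreated 0 h arrays (log2, x axis), grouped by role; each point is 1 array and each colour a line, and the grey band spans the level limits of the lines (3.47 to 3.52). TK6 points lie to the right for 20 members, while CXCL1, CXCL2, CXCL3 and BCL2A1 are highest in G361.

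All 8 measured subunits and feedback regulators were highest in TK6, 7 of them above the next line. NFKBIA, the inhibitor that retains NF-kB dimers in the cytoplasm, measured 11.44 ± 0.07 log2 in TK6 (SD, n = 3) and 7.78 ± 0.08 in G361, the lowest line. REL, the lymphoid-enriched subunit, measured 9.58 ± 0.12 in TK6 and 5.84 ± 0.21 in HepG2. TNFAIP3 (A20), a ubiquitin-editing brake on the pathway, had the widest range of this group, 6.01 log2, from 10.66 ± 0.08 in TK6 down to 4.65 ± 0.38 in U2OS. RELB did not differ between TK6 (6.55 ± 0.35) and HepG2 (6.40 ± 0.32) beyond their spread.

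The chemokines divided between G361 and TK6. The neutrophil-attracting CXCL1, CXCL2, CXCL3 and CXCL8 were highest in G361, and the monocyte- and lymphocyte-attracting CCL2, CCL4 and CCL20 were highest in TK6. CXCL1 measured 10.53, 10.29 and 9.90 log2 in the 3 G361 arrays, then 3.71, 4.43 and 4.45 in BJ. CXCL1 was 2.95, 2.58 and 3.12 in TK6, 2.84, 2.77 and 2.62 in U2OS, and 2.68, 2.71 and 2.56 in HepG2, all below the level limit, so G361 stood far above every other line. CXCL2 (5.16 in G361) was past the limit in 1 line and CXCL3 in 2. CXCL8 did not differ between G361 (7.32) and HepG2 (6.90) beyond the spread, and both lay above the other lines. Because CXCL1, CXCL2 and CXCL3 are close paralogs, cross-hybridisation between their probe sets was not tested.

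CCL2 followed a different order. It measured 11.35, 10.55 and 10.67 log2 in TK6 and 8.79, 9.05 and 8.85 in BJ. In U2OS it was 6.81, 5.65 and 5.54, with replicate 1 the highest array there as in each of the other U2OS groups. It was 2.85, 3.70 and 3.78 in G361 and 3.30, 3.38 and 3.51 in HepG2. TK6, BJ and U2OS were separated from each other and from the last pair, which did not differ. CCL20, a ligand of CCR6, measured 8.42 ± 0.17 in TK6 and 2.85 ± 0.26 in HepG2, the latter below the level limit.

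Among the cytokines, TK6 was highest for TNF (7.03 ± 0.18), LTA (6.26 ± 0.29), EBI3 (9.48 ± 0.11) and IL1A (4.35 ± 0.35), the last of which did not differ from U2OS. TNF and LTA are neighbouring genes encoding related ligands, and EBI3 is a subunit of the heterodimeric cytokines IL-27 and IL-35. LIF, a cytokine of the IL-6 family, was instead highest in U2OS (7.62 ± 0.09), followed by HepG2 (6.74 ± 0.09) and G361 (6.36 ± 0.14), which did not differ, then TK6 (5.04 ± 0.22) and BJ (4.35 ± 0.31). IL6 (4.96 ± 0.24) and IL1B (5.18 ± 0.32) were highest in BJ, within ranges of 1.29 and 1.06 log2 over the lines.

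BCL2A1, an anti-apoptotic BCL2 relative, ranged over 7.63 log2, with its low end below the level limit. It measured 10.04, 10.49 and 10.49 in G361, 9.54, 9.68 and 9.47 in TK6, and 6.00, 6.33 and 6.19 in HepG2. In U2OS BCL2A1 was 2.85, 2.61 and 2.77 and in BJ 2.49, 2.88 and 2.75, below the level limit in both. The groups of G361, TK6 and HepG2 did not overlap with each other or with U2OS and BJ. TRAF1, a signalling adaptor, and the surface proteins ICAM1, CD83 and CD40 were highest in TK6, as was the transcription factor IRF1.

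After 5 Gy, calls among the members were few and came from TK6. At 3 h LIF rose and TNF fell, 2 of the 26 members tested, where 3.99% of all genes tested were called. At 6 h LIF, EBI3 and IRF1 rose and LTA fell, 4 of 26, against 6.23% of all genes. The median member difference was 0.07 log2 at 3 h and 0.16 at 6 h, beside 0.01 over all genes at both times. Arrays of the groups did not overlap for 7 members at 3 h (17.4% of all genes) and 9 at 6 h (23.6%). No member of the other 4 lines was called at either time.

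**Figure D2:**
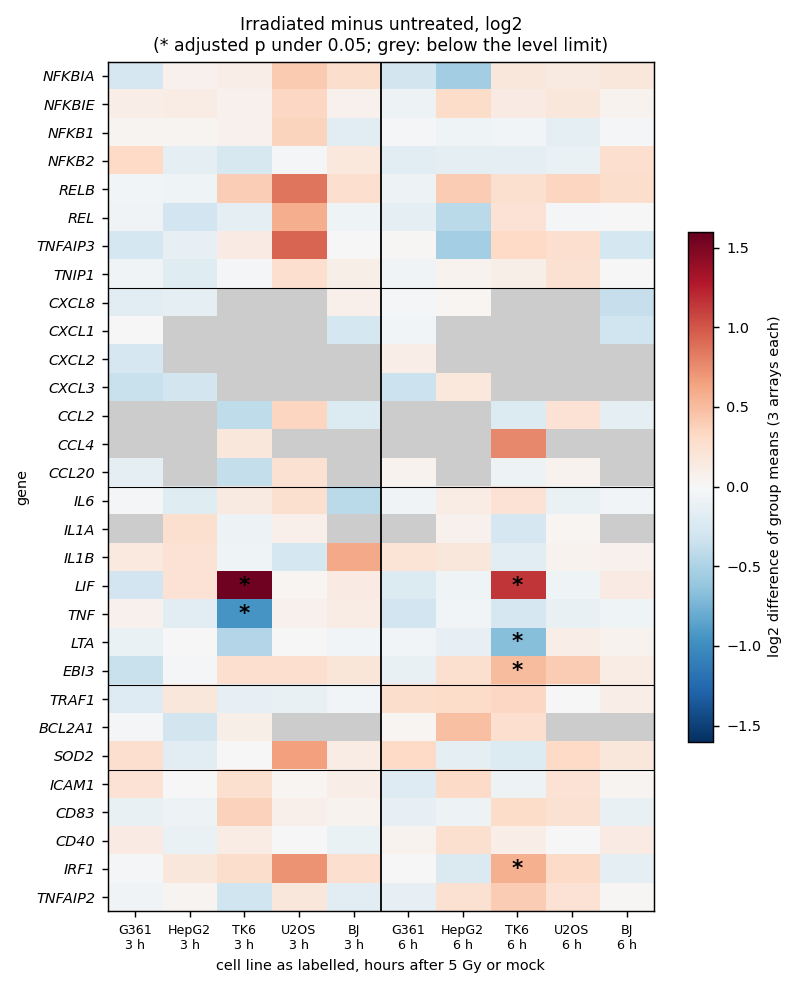
Irradiated minus untreated difference (log2, colour) for the 30 measured members in the 5 lines at 3 h and 6 h, with 3 arrays in each group; a star marks an adjusted p under 0.05 and grey a gene below the level limit of that line. The 6 stars lie in the TK6 columns. U2OS at 3 h is positive for 20 of 24 members with no star, where the median over all genes is also positive (0.10 log2).

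LIF gave the largest response (gene at chr22:30240453-30246759 in GRCh38.p14). In TK6 it measured 5.27, 5.15 and 5.55 log2 in untreated cells at 3 h and 7.03, 6.76 and 6.83 after irradiation. At 6 h it measured 5.44, 5.42 and 5.17 untreated and 6.62, 6.39 and 6.45 irradiated. Every irradiated array lay above every untreated one at both times. Levels are averages over a culture, so a change in the number of expressing cells and a change in RNA per cell cannot be told apart. The difference was 1.55 (SE 0.16), a 2.93-fold rise, at 3 h (adjusted p = 4.66e-06), and 1.14 (SE 0.16), a 2.21-fold rise, at 6 h (adjusted p = 0.000181).

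TNF (chr6:31575565-31578336) moved the other way at 3 h. Untreated TK6 arrays measured 6.96, 6.55 and 6.74 and irradiated ones 5.91, 6.02 and 5.48, with no overlap. TNF fell by 0.94 log2 (SE 0.16, adjusted p = 0.0013), and without replicate 3 the adjusted p was 0.117. At 6 h the untreated arrays were at 6.54, 6.51 and 6.49 and the irradiated at 6.08, 6.21 and 6.43, a difference of -0.27 that did not pass. The neighbouring LTA (chr6:31560610-31574324) measured 7.04, 6.36 and 6.74 untreated and 6.37, 5.76 and 5.97 irradiated at 6 h. LTA fell by 0.68 (SE 0.19, adjusted p = 0.0416), with 1 irradiated array just above the lowest untreated one. Its mean was 6.26 at 0 h, and at 6 h 6.71 in untreated and 6.03 in irradiated arrays. Leaving out replicate 1, 2 or 3 ended the LTA call (adjusted p = 0.0577, 0.157 and 0.38), as did leaving out irradiated replicate 2 or 3 or untreated replicate 1 or 3 alone (0.115 to 0.191).

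EBI3 (chr19:4229523-4237528) measured 9.88, 9.55 and 9.63 in untreated TK6 at 6 h and 10.36, 10.07 and 10.16 after irradiation. EBI3 rose by 0.51 log2 (SE 0.11, adjusted p = 0.00828), without overlap, and the call was lost without replicate 3 (adjusted p = 0.23), without irradiated replicate 1 alone (0.0571) and without untreated replicate 2 alone (0.0595). IRF1 (chr5:132481609-132490773), a factor of interferon responses, measured 7.40, 7.02 and 7.02 untreated and 7.96, 7.68 and 7.51 irradiated at 6 h. IRF1 rose by 0.57 (SE 0.14, adjusted p = 0.0227), and its second probe set differed by 0.73. The IRF1 call was lost without replicate 2 or replicate 3 (adjusted p = 0.294 and 0.153), and also when irradiated array 1 (0.136) or 2 (0.0579), or untreated array 2 (0.115) or 3 (0.114), was dropped on its own.

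**Figure D3:**
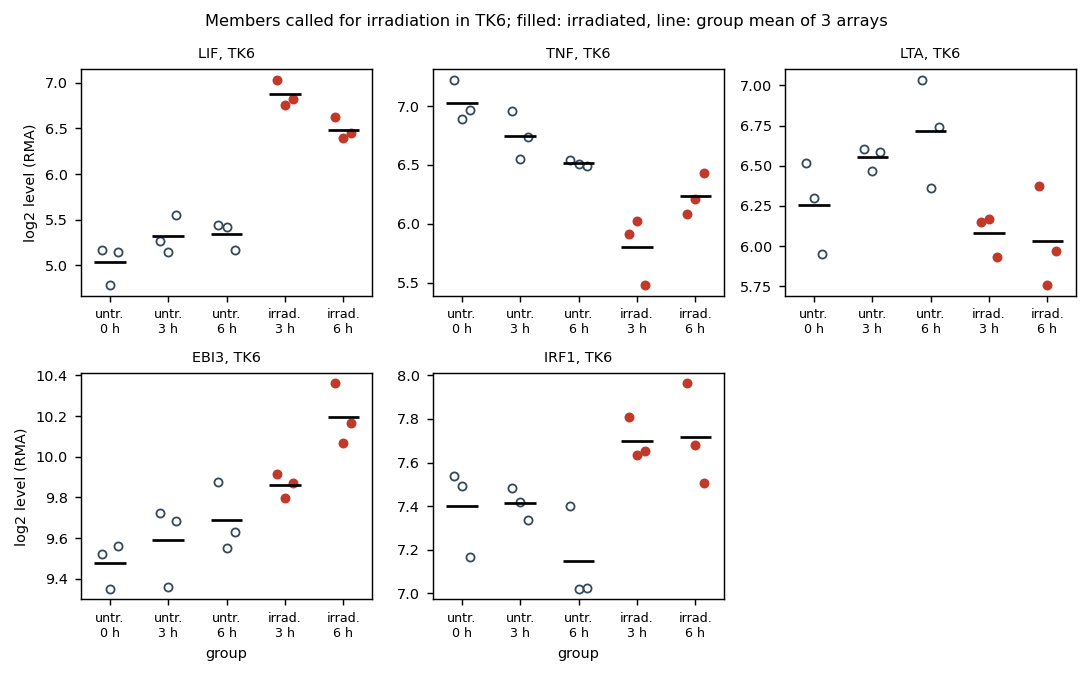
Values of LIF, TNF, LTA, EBI3 and IRF1 in the 15 TK6 arrays (log2, y axis; each panel has its own scale), by group; open circles are untreated arrays, filled circles irradiated arrays and lines the means of 3 arrays. LIF separates by over 1 log2 at both times, and TNF is lowest at 3 h after irradiation.

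With the replicate number as a block, which the correlation of same-numbered arrays allows in TK6, 5 members were called at 3 h and 6 at 6 h. The shares of all genes given above come from the fit without the block. The block counts are therefore not set against a share. At 3 h the block added CCL2 (-0.41, adjusted p = 0.0115), CD83, a surface protein of activated lymphocytes (0.37, adjusted p = 0.0421), and EBI3 (0.27, adjusted p = 0.0184). At 6 h it added CCL4 (0.77, adjusted p = 0.00661) and TNFAIP3 (0.32, adjusted p = 0.0435). The NF-kB subunits NFKB1, NFKB2, REL and RELB and the inhibitor NFKBIA were not called for irradiation in TK6 in either fit, on 1 probe set each. Another NFKB2 probe set, brighter in TK6, differed by -0.43 at 6 h, against -0.16. Of 3 other REL probe sets past the level limit, 1 was opposite at 6 h (-0.45, against 0.23). That set differed by -0.55 at 3 h, against -0.15. For CD40, 1 of 3 others was opposite at 3 h (-0.84, against 0.12) and 3 at 6 h (down to -0.95, against 0.10).

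LIF was then compared across lines. In U2OS, where its starting level was highest, LIF measured 6.97, 7.58 and 7.27 untreated and 7.30, 7.45 and 7.15 irradiated at 3 h, a difference of 0.03 (95% interval -0.36 to 0.42). In BJ it measured 4.29, 4.41 and 5.05 untreated and 5.01, 4.93 and 4.22 irradiated, a difference of 0.13 (-0.50 to 0.77). These intervals leave out a change as large as that of TK6, and the groups overlap in both lines. As labelled, the 3 h difference was -0.31 in G361 and 0.23 in HepG2. The LIF effect differed between the 5 lines at 3 h (moderated F, adjusted p = 0.000242; 1.34% of all genes) and at 6 h (adjusted p = 0.0159; 1.83%). With TK6, U2OS and BJ alone the adjusted p-values were 0.00153 and 0.0271. The effect also differed between lines at 3 h for TNF (adjusted p = 0.0234, and 0.0139 with those 3 lines) and for TNFAIP3 (adjusted p = 0.0427, and 0.155 with those 3 lines). At 6 h, leaving out replicate 1, 2 or 3 ended the LIF call (adjusted p = 0.304, 0.154 and 0.101). At 3 h the TNF call was lost without replicate 2 (adjusted p = 0.232) and without replicate 3 (adjusted p = 0.9999), and the TNFAIP3 call without any 1 of the 3 (adjusted p = 0.14 to 0.738).

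**Figure D4:**
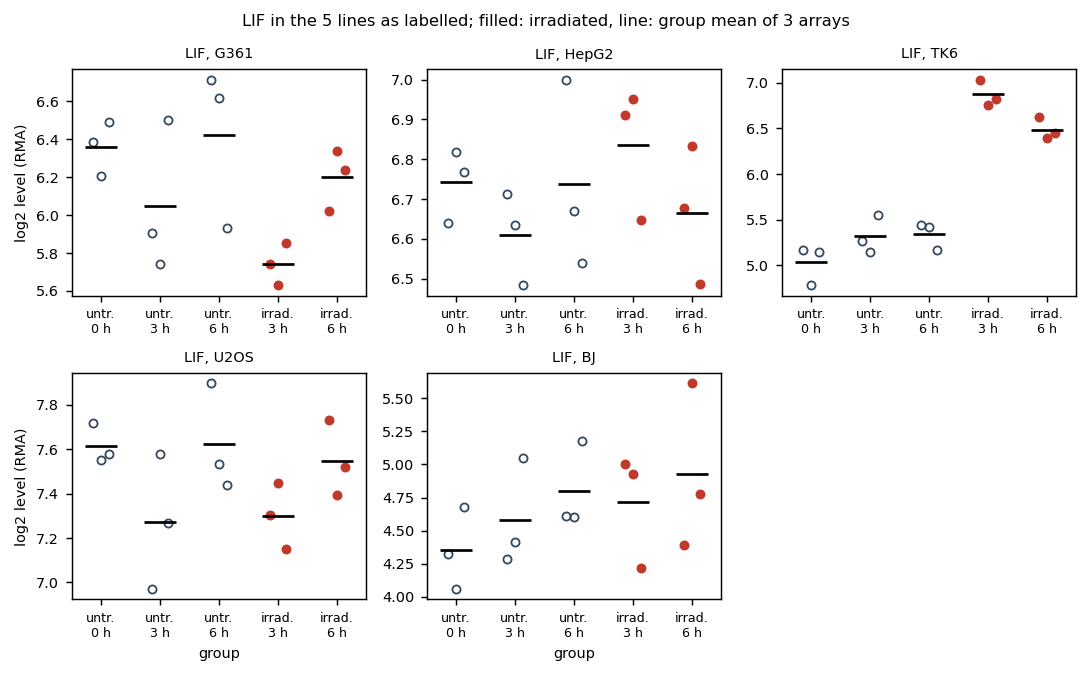
LIF level (log2, y axis; each panel has its own scale) in the 5 groups of each line as labelled; open circles are untreated arrays, filled circles irradiated arrays and lines the means of 3 arrays. Irradiated and untreated arrays separate at both times in TK6 and overlap in U2OS and BJ.

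In U2OS at 3 h, 0 of 24 members were called (0.0887% of all genes), and 5 had an unadjusted p under 0.05. The share of all genes at an unadjusted p under 0.05 was not counted. Such counts, here and below, are therefore not read as results about the members. Members were mostly higher after irradiation in value: 20 of 24 differences were positive, with a median of 0.25 log2 beside 0.10 over all genes. The share of all genes with a positive difference was not counted, and their median was itself positive. The members were measured on the same arrays and are not replicates of each other. The level of untreated replicate 1 moves with these differences, and its part in them was not tested. Without that array the median was 0.19 beside -0.01 over all genes, and 20 of 24 differences were positive, 18 of them the same members. ICAM1 and LIF turned negative without it, and IL1B and TRAF1 positive. The values below are therefore given with each array.

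TNFAIP3 in U2OS measured 4.85, 4.29 and 4.64 untreated and 5.97, 5.29 and 5.31 irradiated at 3 h, a difference of 0.93 (SE 0.26, adjusted p = 0.566). Its other probe set differed by 0.36. RELB, the subunit of the non-canonical pathway, measured 4.82, 4.46 and 4.54 untreated and 5.45, 5.88 and 5.08 irradiated, a difference of 0.86 (SE 0.24, adjusted p = 0.52). The irradiated arrays lay above the untreated ones for both genes, as they did for 7 of the 24 members (6.80% of all genes had groups apart in either direction). At 0 h the U2OS means were 4.65 for TNFAIP3 and 5.11 for RELB. From 0 h to 3 h in untreated U2OS, 0 of 8 subunits and feedback regulators had a positive difference. Their median was -0.20, beside -0.13 over all genes. The part of a low untreated 3 h group in the differences was not tested.

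IRF1 in U2OS measured 4.81, 5.22 and 5.35 untreated and 5.87, 5.83 and 5.83 irradiated, a difference of 0.72 (adjusted p = 0.818), with 0.29 on its second probe set. Its 0 h mean was 5.50. REL differed by 0.59 (0 h mean 6.70) and NFKBIA by 0.42 (0 h mean 8.33). For NFKBIA the untreated arrays were 7.67, 8.44 and 8.45 against 8.56, 8.59 and 8.65, so untreated replicate 1 carried most of that difference. SOD2 differed by 0.66 with all 3 untreated arrays (4.82, 6.79 and 6.66) and by 0.02 without replicate 1. In a single fit of all 75 arrays TNFAIP3 (adjusted p = 0.00688), RELB (0.0297) and IRF1 (0.0428) passed. The share of all genes called in that fit is not given here. These calls are therefore not read as a result about the members. For irradiation in TK6 at 6 h that fit added CCL4 and lost EBI3 and IRF1. At 6 h 0 of 24 U2OS members were called (0.641% of all genes), 0 had an unadjusted p under 0.05, and the median was 0.12.

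**Figure D5:**
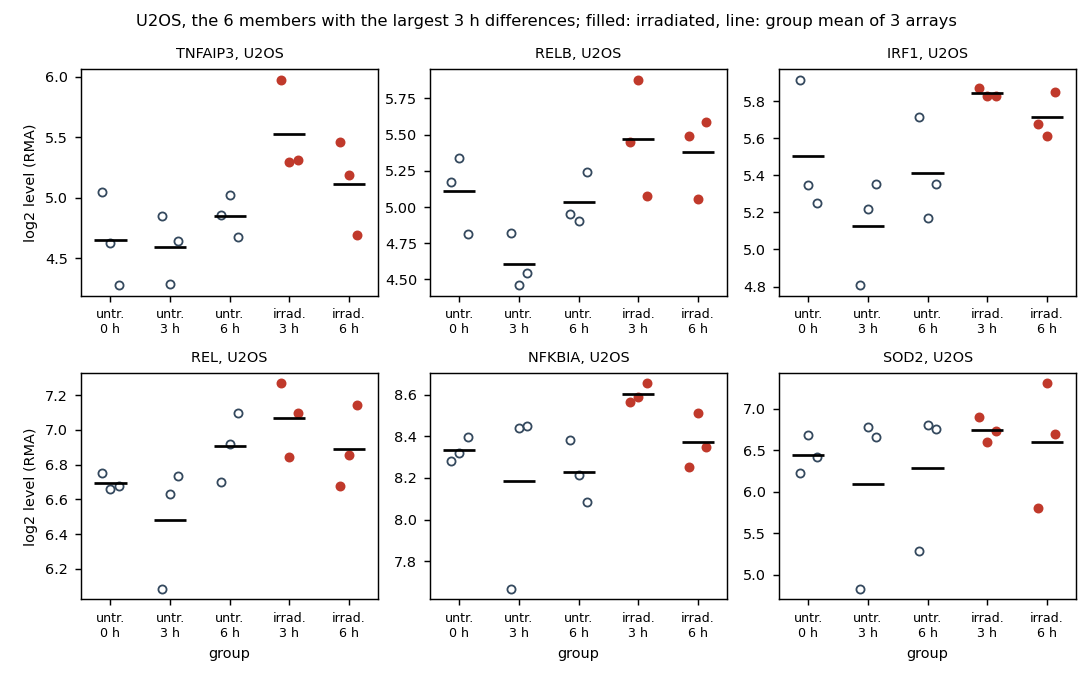
The 6 members with the largest differences in U2OS at 3 h (log2, y axis; each panel has its own scale), by group; open circles are untreated arrays, filled circles irradiated arrays and lines the means of 3 arrays. Untreated 3 h replicate 1, the leftmost point of its group, is low for NFKBIA (7.67), REL (6.08) and SOD2 (4.82); none of the 6 passed in the fit of the line.

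In BJ fibroblasts 0 of 24 members were called at 3 h (0.180% of all genes) and 0 at 6 h (0.235%), with 1 and 0 at an unadjusted p under 0.05. The 1 was NFKBIA, which differed by 0.28 (SE 0.10) and did not pass after adjustment. Member medians were 0.07 and 0.03. IL6 and CXCL8, secreted by many stressed fibroblasts, were not called.

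As labelled, G361 had 0 of 27 members called at 3 h and at 6 h, where 0% of all genes were called, and 0 at an unadjusted p under 0.05. The p53 target means of single arrays ranged widely within untreated G361 groups (0.10 to 0.66 and 0.02 to 0.78). The 0 calls are therefore not read as a lack of response. HepG2 had 0 of 25 called at 3 h (0% of all genes) and at 6 h (0.00696%), with 0 and 3 at an unadjusted p under 0.05. The 3 were NFKBIA, TNFAIP3 and REL, each lower in the arrays labelled irradiated than in those labelled untreated at 6 h. Their means at 0 h were 9.01, 6.74 and 5.84. At 6 h they were 9.47, 7.26 and 6.47 in arrays labelled untreated and 8.92, 6.72 and 6.04 in those labelled irradiated. NFKBIA in HepG2 measured 9.83, 9.20 and 9.39 in arrays labelled untreated at 6 h and 9.11, 8.86 and 8.79 in those labelled irradiated, a difference of -0.55 (adjusted p = 0.213, and 0.028 with the replicate block). TNFAIP3 in HepG2 measured 7.38, 7.23 and 7.17 against 6.88, 6.71 and 6.56, a difference of -0.54 (adjusted p = 0.236). Groups did not overlap for either gene, and 5 of the 25 members in all had groups apart (14.2% of all genes). Without HepG2 replicate 1, REL passed at 3 h (-0.54, adjusted p = 0.0331) and NFKBIA (-0.47, adjusted p = 0.00204) and TNFAIP3 (-0.56, adjusted p = 0.0106) at 6 h. No share of all genes without that replicate is given beside these calls, which are not read as a result about the members.

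Time in mock-irradiated culture also changed members in TK6. These comparisons share the untreated 3 h and 6 h arrays with those above. From 0 h to 3 h TRAF1 and CCL2 rose and REL fell, 3 of 26 members (1.81% of all genes). From 0 h to 6 h CCL2, TRAF1 and NFKB1 rose and REL, NFKBIA and TNIP1 fell, 6 of 26 (5.16%). With the replicate block the count was 8, adding CD40 and TNF, with no share of all genes given beside it.

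TRAF1 measured 8.42, 7.86 and 7.64 at 0 h, 9.24, 9.27 and 9.42 at 3 h, and 8.996, 8.65 and 8.53 at 6 h. It rose by 1.34 log2 (SE 0.16, adjusted p = 0.000655) and 0.75 (SE 0.16, adjusted p = 0.00963). REL measured 9.68, 9.60 and 9.45 at 0 h, 9.003, 8.74 and 8.80 at 3 h, and 8.63, 8.58 and 8.44 at 6 h. REL fell by 0.73 (SE 0.12, adjusted p = 0.0057) and 1.03 (SE 0.12, adjusted p = 0.000173). NFKBIA measured 11.42, 11.38 and 11.52 at 0 h and 10.93, 10.78 and 10.63 at 6 h, a fall of 0.66 log2 with no overlap (adjusted p = 0.00046, and 0.064 without replicate 3). CCL2 rose by 0.66 at 3 h and 0.70 at 6 h, NFKB1 by 0.49 at 6 h, and TNIP1, a partner of TNFAIP3, fell by 0.44 at 6 h. Leaving out replicate 2 or replicate 3 of TK6 ended each call of TRAF1, CCL2, NFKB1 and TNIP1, and that of REL at 3 h (adjusted p = 0.421 and 0.159). Leaving out 0 h replicate 2 or 3 alone ended the CCL2 calls at 3 h (0.177 and 0.181) and 6 h (0.0775 and 0.0628) and the TRAF1 call at 6 h (0.0532 and 0.0539), and leaving out any 1 untreated 3 h array ended the CCL2 call at 3 h (0.0651 to 0.104).

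In the other lines 0 members were called between arrays labelled untreated at different times. Of all genes, 0% were called in G361 and U2OS at both times and in HepG2 at 3 h, 0.640% in HepG2 at 6 h, and 0.0138% and 0.00691% in BJ. In HepG2, 12 of 26 p53 targets were called higher at 6 h than at 0 h in arrays labelled untreated (median 0.61). The G361 and HepG2 comparisons are therefore as labelled and not read as effects of time in untreated culture. Members at an unadjusted p under 0.05 numbered 0 and 1 in G361, 0 and 8 in HepG2, 1 and 0 in U2OS, and 0 and 2 in BJ. The share of all genes at that threshold was not counted. These counts and those in the next sentence are therefore not read as results about the members. A change in the irradiation effect between 3 h and 6 h was called for 0 members in any line (0.295% of all genes in TK6), with 3 members at an unadjusted p under 0.05 in TK6, 3 in HepG2 and 0 in the others.

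Other genes of the pathway were read from lists of receptors, adaptors and kinases, negative regulators, the route from DNA damage to NF-kB, and further inflammatory targets. Calls for irradiation came from TK6 alone. Of 9 receptors tested, 0 were called at 3 h and 1 rose at 6 h (TLR3, a sensor of double-stranded RNA, 0.63). TLR3 fell by 0.80 in untreated cells from 0 h to 6 h (means 6.83 and 6.03), and its irradiated mean was 6.66. Of 16 adaptors and kinases, TRAF5 fell at 3 h (by 0.51) and 0 were called at 6 h. Of 7 negative regulators, 0 were called at either time. Of 6 genes on the damage route, PIDD1 rose by 1.13 (SE 0.12, adjusted p = 8.69e-06) and 1.25 (SE 0.12, adjusted p = 3.29e-06). PIDD1 is a scaffold that joins nuclear NEMO complexes and is also a known p53 target. Of 16 further inflammatory targets, CSF1, the macrophage growth factor, rose at 3 h (1.03) and 6 h (0.87), as did IER3, an early response gene (0.48 and 0.42). VCAM1, an adhesion molecule named after its value was seen, fell by 0.82 at 3 h. VCAM1 rose by 0.88 in untreated cells from 0 h to 3 h (means 4.30 and 5.18), and its irradiated mean was 4.36. In untreated TK6, CXCL10, an interferon-induced chemokine, rose by 1.30 at 3 h and 1.75 at 6 h. Untreated cells also had lower TRADD (fell by 0.60) and TRAF5 (fell by 0.55), both receptor adaptors, at 3 h, and higher MMP9, a matrix protease (0.99), and IRAK1, a receptor kinase (0.36), at 6 h.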

How the data were processed

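RNA of 75 samples was measured on as many single-sample arrays. Per the submitters' processing notes the authors used RMA, and their deposited values are log2 levels. Its version and the set of arrays normalized together are not given in the sources used here. Depth has no counterpart on arrays, and the number of arrays limits the precision.

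Of 54675 probe sets, 41097 had 1 symbol, 1801 several and 11777 none here. In each line, genes with a mean over its 15 arrays above a limit, the 40th percentile over the line's probe sets, were tested (14227 to 14654 genes, level limits 3.47 to 3.52 log2). A model with 5 group means was fitted per line with limma 3.58.1 in R 4.3.3 (eBayes with trend), with Benjamini-Hochberg adjustment over all genes tested, and called at an adjusted p under 0.05. "Rose" and "fell" mean called. Differences between lines used a moderated F over the 75 arrays. The 0 h comparison used 15 arrays and no level filter. Tested on simulated data for TK6 at 3 h, the fit called 86 of 100 genes changed by 1 log2 and 100 of 100 changed by 2 log2, among 14227, and it also called 14 unchanged genes. The simulated noise had the spread of TK6 and was independent between arrays. These counts therefore do not describe the other lines, nor arrays that deviate together.

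Same-numbered arrays deviated together (every correlation above 0.1) for irradiation in G361, TK6 and U2OS at both times, HepG2 at 6 h and BJ at 3 h, and, in untreated cells against 0 h, for TK6 at 6 h and for G361, HepG2 and BJ at 3 h.

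Per-array values are given for members called for irradiation and for the 3 with the widest measured 0 h range. Values of other members were added after they were seen. Of the pathway lists, at most 4 called genes per line and time were named. The members and lists were chosen with earlier results of these data known. Alternatives were another normalization, filter, probe set summary, fit, replicate block and leaving out replicates.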

Additional observations from a re-analysis of the deposited data

Results flagged for a closer look

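The irradiation effect on 3 members differed between the 5 lines by the moderated F test of all 75 arrays. For LIF the adjusted p was 0.000242 at 3 h and 0.0159 at 6 h, with a rise of 1.55 and 1.14 log2 in TK6 and differences of 0.03 and -0.07 in U2OS. The LIF call at 6 h was lost without replicate 1, 2 or 3 (adjusted p = 0.304, 0.154 and 0.101). For TNF it was 0.0234 at 3 h, with a fall of 0.94 log2 in TK6 and a difference of 0.07 in U2OS, and it was lost without replicate 2 or 3 (0.232 and 0.9999). For TNFAIP3 it was 0.0427 at 3 h, with differences of 0.13 in TK6 and 0.93 in U2OS. The TNFAIP3 call was lost with TK6, U2OS and BJ alone (adjusted p = 0.155) and without any 1 replicate (0.14 to 0.738). The tests of 5 lines include G361 and HepG2, whose treatment labels the p53 targets did not bear out.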

How the results depend on the processing

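Each count of called members and each called gene was recomputed under the alternatives, and no called gene changed direction. With the replicate block the number of members called was 5 for irradiation in TK6 at 3 h, 9 for untreated TK6 from 0 h to 3 h, 1 for irradiation in HepG2 at 6 h, 3 for untreated HepG2 from 0 h to 6 h, and 3 for the difference between lines at 6 h. No share of all genes is given beside these block counts. The numbers did not pair the arrays for the untreated TK6 3 h and HepG2 6 h comparisons, and the block changed no other count by over 1.5 times. With the 6 compared arrays alone, 2 members were called in TK6 at 6 h. Quantile normalization gave 5 for untreated TK6 from 0 h to 3 h and 2 for the difference between lines at 6 h. A fit of all 75 arrays gave 3 in U2OS at 3 h, with no share of all genes given beside it. In TK6 it lost EBI3 and IRF1 for irradiation at 6 h and, in untreated cells, CCL2 at both times and TRAF1 at 6 h. It gained CCL4 for irradiation at 6 h and in untreated cells at 3 h. The cause was not tested. Leaving out replicates, the count ranged over 1 to 3 in TK6 at 3 h, 1 to 5 at 6 h, 0 to 7 and 1 to 6 in untreated TK6 at 3 h and 6 h, 1 to 2 and 0 to 0 for the difference between lines at 3 h and 6 h, and 27 to 29 for the 0 h levels. In HepG2 it ranged over 0 to 1 at 3 h, 0 to 2 at 6 h, 0 to 2 in both untreated comparisons, and 0 to 1 for the effect at 6 h minus that at 3 h, the highest values coming without replicate 1. LIF in TK6 kept its call under all 15 alternatives at both times (adjusted p up to 0.00191 and 0.0286), TNF at 3 h under 14, EBI3 under 11, and IRF1 and LTA under 7 each. Without replicate 2 or 3 of TK6, all genes called fell from 568 to 248 or 211 at 3 h and from 887 to 326 or 246 at 6 h.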
